A study of Homo sapiens with 10 samples.

Results

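Lipoprotein assembly is the step at which a cell loads neutral lipid onto apolipoprotein B (APOB), the large structural protein that stays with one particle for its whole life. Microsomal triglyceride transfer protein (MTTP) does the loading in the endoplasmic reticulum, as a complex with the disulfide isomerase P4HB. Smaller apolipoproteins (APOA1, APOA2, APOA4, APOC3 and APOE) move between particles and act as cofactors, ligands or inhibitors in the blood, and the small intestine and the liver are the organs known for making them. The genes described were these 6, MTTP and APOH, chosen by gene symbol. They are 8 of the 60554 genes in the tables, and the abundance estimates of each gene's transcripts were added up per gene.

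The cells were Caco-2, a colon carcinoma line that takes on enterocyte features in culture and is known to secrete APOB particles. The cells of all 3 groups came from a puromycin-selected clone with dCas9-KRAB, a cleavage-dead Cas9 fused to a repressor domain, so they are 1 clone as a model of the intestine. A lentiviral plasmid with hygromycin resistance then brought a guide under the U6 promoter. Of the 10 libraries, 5 carried the plasmid without a guide (gCtl), 3 were labelled LHFPL3-AS2_g1 and 2 were labelled LHFPL3-AS2_g2 (g1 and g2 from here on), named for the long noncoding RNA gene the guides were designed against. Libraries were QuantSeq, a 3′ method that reads the end of polyadenylated RNA, and nothing in the labels says that libraries of a group came from separate cultures.

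Total estimated counts ran from 3838803 to 8730468 per library. Mitochondrially encoded genes took at least 18.3% of the counts in each gCtl and g1 library and 16.8 and 12.0% in the g2 libraries, and leaving them out changed none of the calls below for the 7 tested members. LHFPL3-AS2 itself was at 0.840 to 3.73 RPM (reads scaled to a library total of 1000000) in gCtl, 2.03 to 3.95 RPM in g1 and 2.16 to 6.01 RPM in g2. Few reads stand behind these values, between 4.39 and 44.0 estimated counts a library. They were not lower in the guide libraries, and the difference of both guides together from gCtl had an exact two-sided permutation p of 0.190 on log2(RPM + 1). The directions below are thus differences between libraries with these labels. The epithelial identity was clear from EPCAM (670 to 872 RPM) and VIL1 (122 to 187 RPM), whereas the enterocyte enzymes ALPI and SI were at or below 2.86 RPM in every library. SI was at 0 to 0.361 RPM in gCtl and at 0.956 to 2.86 RPM in the guide libraries, without overlap. ALPI overlapped, at 0 to 0.958 RPM in gCtl and 0.115 to 0.430 RPM in the guide libraries. Both were too low to be tested. Of 13 epithelial markers 10 were tested, and none was called with g1. With g2, KRT20 (log2 fold change 1.91) and CDH17 (0.72) were called higher and KRT18 (-0.78) lower. That is 30.0%, against 23.7% of all tested genes. KRT20 was also called higher with g2 than with g1 (1.65). Summed markers of other cell types were low in every library: 5.28 to 11.3 RPM over 7 fibroblast markers, 2.15 to 10.1 RPM over 5 endothelial markers (2.15 to 3.66 in gCtl, 4.93 to 10.1 in g1 and 2.20 to 4.80 in g2) and 13.6 to 32.2 RPM over 8 immune markers. Most of the immune sum was LYZ, which epithelial cells also make, and most of the endothelial sum was PECAM1. Of the 4 of these markers that were tested, PECAM1 was called higher with g1 (log2 fold change 1.29, adjusted p = 0.0214) and CD14 lower with g2 (-2.63, adjusted p = 0.00531), and LYZ and COL1A1 were not called. CD14 exceeded the 3 RPM needed for testing only in gCtl libraries, the group where it was high. The part of these markers in the results below was not tested.

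MTTP was higher with both guides, APOB was higher with g1 and lower with g2, and APOH was lower with g2. APOC3 was lower with g2 as well, and APOA1 and APOE were not called in any comparison. A gene was called when its adjusted p from edgeR was at most 0.05 and its fold change at least 1.5. With g1, 2 of the 7 tested genes were called, both higher, where 16.8% of all 11640 tested genes were called (6.81% higher). With g2, 4 of 7 were called, 1 higher and 3 lower, against 23.7% of all tested genes (10.7% higher and 13.0% lower). Between g2 and g1, 4 of 7 were called, each lower with g2, against 4.98% of all tested genes (3.42% lower). With both guides as 1 group, 1 of 7 was called, beside 19.2% of all tested genes (8.14% higher). The median log2 fold change of the 7 genes was 0.45 with g1 and -0.68 with g2, and that of all tested genes was 0.01 and -0.0017. On the TMM-scaled level the libraries of the groups did not overlap for 4 of the 7 genes with g1, 4 with g2, 4 between the guides and 1 with the guides as 1 group, beside 26.6%, 38.0%, 32.9% and 15.5% of all tested genes. With 7 genes these counts are a description. APOA4 did not reach 3 RPM in any library and was left out of these fits. The 2 guide comparisons share the gCtl libraries.

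APOB, the scaffold of chylomicrons and very low density lipoproteins, is encoded on the minus strand at chr2:21001429-21044073 (GRCh38). It was at 938, 967, 1505, 1013 and 1395 RPM in the gCtl libraries. The g1 libraries were at 1599, 2265 and 1930 RPM. The g2 libraries were at 531 and 637 RPM. The 3 groups did not overlap, with g1 above gCtl and g2 below it. APOB was 1.71-fold higher with g1 (log2 fold change 0.78 ± 0.19 SE, adjusted p = 0.00863) and 1.79-fold lower with g2 (-0.84 ± 0.23 SE, adjusted p = 0.0135). Between the guides APOB was 3.07-fold lower with g2 (-1.62 ± 0.25 SE, 95% interval -2.15 to -1.09, adjusted p = 0.00183). With the guides as 1 group, whose libraries lay on both sides of gCtl, the log2 fold change was 0.32 (adjusted p = 0.489). Being called higher with one guide and lower with the other was rare: it was so for 11 of the 11640 tested genes, or 0.0945%, and APOB was among them. Each call rested in part on 1 library: without the second g1 library the g1 change was 0.67 (adjusted p = 0.0510), and without the first g2 library the g2 change was -0.74 (adjusted p = 0.0688). The difference between the guides stayed past the threshold without any 1 library.

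Markers of hepatocytes, the other main APOB-secreting cell, moved with APOB in g1. Summed over 11 such markers the level was 180 to 250 RPM in gCtl, 355 to 1011 RPM in g1 and 141 to 170 RPM in g2. With g1, 3 of the 6 tested markers were called higher and 1 lower, a share of 66.7% against 16.8% of all tested genes. TTR, which carries thyroid hormone and retinol in plasma, was at 53.4 to 88.9 RPM in gCtl and 204, 263 and 352 RPM in g1 (log2 fold change 2.11). ALB, the plasma albumin gene, was at 100, 132 and 623 RPM in g1 (2.15), and without the third g1 library its mean fell from 285 to 116 RPM, against 69.3 RPM in gCtl. ASGR2, an asialoglycoprotein receptor subunit, had a log2 fold change of -1.31. CYP8B1 and TAT were at 4.98 to 12.2 RPM and not called, and F9, CYP2E1 and CYP7A1 were at or below 0.229 RPM in every library. The part of these markers in the APOB result was not tested.

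MTTP, the lipid loader, was higher with both guides. It was at 20.1, 24.7, 17.3, 20.0 and 16.6 RPM in gCtl, at 73.0, 89.5 and 47.8 RPM in g1, and at 84.7 and 63.5 RPM in g2. Every guide library was above every gCtl library, and g1 and g2 overlapped. MTTP was 3.63-fold higher with g1 (log2 fold change 1.86 ± 0.19 SE, adjusted p = 3.02e-05) and 4.20-fold higher with g2 (2.07 ± 0.20 SE, adjusted p = 9.77e-06). The difference between the guides was 0.21, with a 95% interval of -0.26 to 0.69 (adjusted p = 0.635). Across the guides together MTTP was 3.86-fold higher (1.95 ± 0.18 SE, adjusted p = 2.39e-05), in 5 of 5 libraries. Within a library, the ratio of APOB to MTTP in RPM was therefore 61.5 ± 22.4 (SD, n = 5) in gCtl, 29.2 ± 9.85 (SD, n = 3) in g1 and 8.15 ± 2.66 (SD, n = 2) in g2. These are ratios of 3′ reads, given to compare libraries and not as a ratio of molecules.

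MTTP lies on the plus strand at chr4:99563761-99623999. Its first bases overlap those of TRMT10A, which ends at 99564032 and encodes a tRNA methyltransferase. TRMT10A was also called higher with g1 (log2 fold change 0.95, adjusted p = 0.00523), while with g2 it was 0.45 (adjusted p = 0.182). The neighbour on the other side, LAMTOR3, lies 254 kb away and was 0.09 with g1 (adjusted p = 0.830) and, for g2, 0.92 (adjusted p = 0.0224, called). Of the MTTP counts, 51.2% were assigned to the transcript MTTP-001 and 48.6% to MTTP-202, and the share of MTTP-001 ran from 0 to 100% between libraries, so that the split between transcripts carries no information here. MTTP-001 starts at 99574707 in the GENCODE annotation, beyond the end of TRMT10A.

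The bases before the start sites are shown for MTTP, APOH and APOA2, since these are the genes with a called difference and an entry in the RefSeq promoter table (GRCh38.p14), which held 5 of the 8 genes. For MTTP the downstream of 2 listed starts is shown. Its window ends just before the start of the transcript MTTP-003 at 99574824. The start of MTTP-001, at 99574707, lies inside the window, and the marked MTTP matches lie after that start. Capitals mark matches to TTAATNATT, the core bound by HNF1-type factors, or to AGGTCA, the half-site of nuclear receptors, on either strand. AAAGTCCA, an HNF4-type core, was searched for as well. These motifs were chosen with the results known.
MTTP, chr4:99574574-99574823, plus strand: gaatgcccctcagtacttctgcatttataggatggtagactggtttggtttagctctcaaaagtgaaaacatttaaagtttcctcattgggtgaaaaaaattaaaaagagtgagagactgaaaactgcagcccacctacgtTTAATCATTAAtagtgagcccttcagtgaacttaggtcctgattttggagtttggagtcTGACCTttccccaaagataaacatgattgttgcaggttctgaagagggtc
APOH, chr17:66229416-66229665, minus strand: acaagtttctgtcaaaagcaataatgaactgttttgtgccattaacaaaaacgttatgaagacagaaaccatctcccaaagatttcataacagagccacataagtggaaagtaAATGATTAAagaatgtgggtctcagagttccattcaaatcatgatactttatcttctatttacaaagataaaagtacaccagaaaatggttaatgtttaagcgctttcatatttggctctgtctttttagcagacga
APOA2, chr1:161223629-161223878, minus strand: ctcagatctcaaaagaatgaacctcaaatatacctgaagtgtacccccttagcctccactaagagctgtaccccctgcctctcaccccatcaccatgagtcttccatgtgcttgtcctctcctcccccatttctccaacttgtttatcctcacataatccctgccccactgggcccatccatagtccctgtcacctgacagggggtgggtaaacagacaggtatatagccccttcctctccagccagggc

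The MTTP window held TTAATNATT on both strands in overlapping matches and AGGTCA on the opposite strand, and the APOH window held TTAATNATT on the opposite strand. None of the 3 motifs was found in the APOA2 window or in the window before the other listed MTTP start. Over 34943 windows of this length in the same table, 1.18% held TTAATNATT, 12.1% held AGGTCA and 0.984% held AAAGTCCA. The matches describe the letters of these windows and were not related to the expression differences by any test.

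APOA1, the main protein of high density lipoprotein, was not called with either guide. It was at 536, 508, 418, 472 and 317 RPM in gCtl, at 410, 334 and 442 RPM in g1 and at 383 and 429 RPM in g2, and the groups overlapped. Its log2 fold change was -0.13 with g1 (95% interval -0.49 to 0.23, adjusted p = 0.630) and 0.01 with g2 (-0.39 to 0.42, adjusted p = 0.967). Its gene, chr11:116835751-116837950 on the minus strand, is overlapped by APOA1-AS, an antisense gene at 0 to 2.46 RPM. Without knowledge of strand in the quantification, reads of the pair cannot be told apart, but APOA1-AS was low in each library.

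APOA2, the second protein of high density lipoprotein, differed between the guides. It was at 188, 276, 211, 188 and 205 RPM in gCtl and at 397, 270 and 278 RPM in g1. The g2 libraries stood far apart from each other, at 180 and 57.8 RPM. In RPM both g1 and gCtl reached the range of 270 to 276, so these groups overlapped slightly, and both g2 libraries lay below gCtl. On the TMM-scaled level g1 did not overlap gCtl, by a narrow margin (264.79 against 264.77), and g2 did overlap gCtl. The log2 fold change was 0.60 ± 0.26 SE with g1 (adjusted p = 0.115) and -0.68 ± 0.31 SE with g2 (adjusted p = 0.118), so neither was called. Other settings gave a call: with g1 the fit of gCtl and g1 only (0.59, adjusted p = 0.0112) and the fit with no filter (0.60, adjusted p = 0.0485), and with g2 limma on log2(RPM + 1) (-1.04, adjusted p = 0.0168) and on log2(TPM + 1) (-1.07, adjusted p = 0.0363). Between the guides APOA2 was 2.43-fold lower with g2 (-1.28 ± 0.34 SE, adjusted p = 0.0422). That call was close to its limit: it was lost when any 1 of 8 libraries was left out, and without the second g2 library the change was -0.65 (adjusted p = 0.161). Without the first g2 library, the g2 change against gCtl was -1.76 (adjusted p = 0.000459).

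APOC3, an inhibitor of lipoprotein lipase encoded 2.68 kb from APOA1 at chr11:116829706-116833072, was at 60.7, 95.6, 82.9, 58.7 and 109 RPM in gCtl. It was at 142, 61.3 and 96.8 RPM in g1 and at 44.5 and 18.2 RPM in g2. Both g2 libraries were below the gCtl libraries, and the g1 libraries spread across the gCtl range and beyond it. APOC3 was 2.34-fold lower with g2 (log2 fold change -1.22 ± 0.36 SE, adjusted p = 0.0209) and 2.94-fold lower with g2 than with g1 (-1.56 ± 0.39 SE, adjusted p = 0.0301). With g1 the change was 0.33 (adjusted p = 0.443). Both g2 calls rested on the second g2 library: without it they were -0.69 (adjusted p = 0.251) and -1.01 (adjusted p = 0.177). The difference from g1 was also lost without the first g1 library (-1.27, adjusted p = 0.110) and without the third (-1.51, adjusted p = 0.0520). ZPR1, the nearest tested gene on the far side of the APOA4 and APOC3 genes, was 0.67 with g2 (adjusted p = 0.0213, called), so the genes along this stretch of chromosome 11 did not share a direction with g2.

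APOE, a ligand of the low density lipoprotein receptor family, was at 85.6, 72.5, 81.6, 71.5 and 66.1 RPM in gCtl. It was at 65.2, 40.4 and 72.4 RPM in g1 and at 64.8 and 26.7 RPM in g2. In RPM the g1 libraries overlapped gCtl, both g2 libraries lay below it, the first narrowly, and the second was the lowest of all. On the TMM-scaled level g2 overlapped gCtl. Its log2 fold change was -0.28 with g1 (adjusted p = 0.443) and, for g2, -0.56 (95% interval -1.17 to 0.05, adjusted p = 0.159). Without the first g2 library the g2 change was -1.37 (adjusted p = 0.00360), and limma on log2(RPM + 1) also gave a call with g2 (-0.83, adjusted p = 0.0304). The next gene, APOC1, 4.85 kb away and coding for another small apolipoprotein, was called lower with both guides, at -1.32 with g1 (adjusted p = 0.00913) and, for g2, -1.05 (adjusted p = 0.0428). APOC1 was at 21.2 to 31.0 RPM in 4 gCtl libraries and at 8.64 RPM in the fifth, which lay within the guide libraries' 5.99 to 10.4 RPM.

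APOA4, an apolipoprotein made by enterocytes after a fatty meal, was near the limit of detection. It had 3 counts in the 5 gCtl libraries together and 19 counts in the 5 guide libraries, and its highest level was 1.14 RPM. On log2(RPM + 1) the guide libraries were 0.45 higher (exact two-sided permutation p = 0.0714). The difference did not pass this test.

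APOH, also called beta-2 glycoprotein I, is a plasma protein that binds phospholipids and travels in part with lipoproteins. Its gene is on the minus strand at chr17:66212033-66256525. It was at 18.2, 23.2, 22.7, 22.3 and 14.1 RPM in gCtl, at 26.9, 23.9 and 28.3 RPM in g1, and at 3.75 and 3.55 RPM in g2. The 2 g2 libraries were nearly equal and far below every other library. APOH was 4.91-fold lower with g2 (log2 fold change -2.29 ± 0.27 SE, adjusted p = 4.64e-05) and 6.69-fold lower with g2 than with g1 (-2.74 ± 0.28 SE, adjusted p = 0.000124). With g1 it was 0.45 higher on the log2 scale, with every g1 library above every gCtl library, but did not pass the test (adjusted p = 0.105). Its neighbours were AXIN2, a Wnt target at 650 kb, with a log2 fold change of -1.28 with g2 (adjusted p = 0.00863, called), and PRKCA at 46.1 kb, with -0.15 (adjusted p = 0.675).

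**Figure D1:**
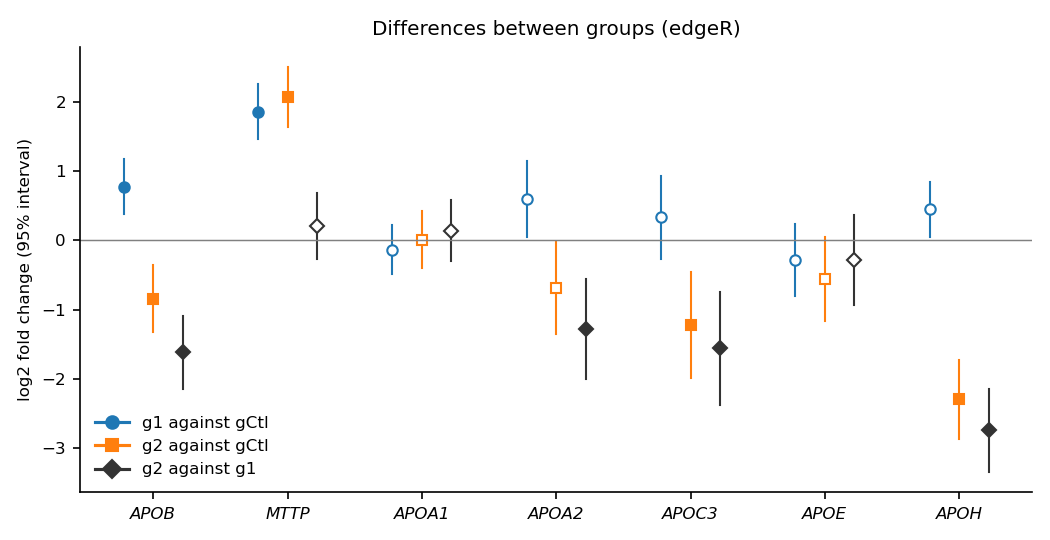
Log2 fold change (y axis) of each tested gene (x axis) for g1 against gCtl (circles), g2 against gCtl (squares) and g2 against g1 (diamonds), from edgeR. Vertical lines are 95% intervals and filled symbols passed the adjusted p of 0.05 and the fold of 1.5: MTTP is high with both guides, and the filled diamonds of APOB, APOA2, APOC3 and APOH are below 0.

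The members' summed level followed APOB, which made up 41.1 to 73.4% of it. The sum was 1845 to 2339 RPM in gCtl, 2713 to 3085 RPM in g1, and 1292 and 1236 RPM in g2, and the 3 groups did not overlap. The share of MTTP in the sum was 0.740 to 1.26% in gCtl, 1.65 to 2.90% in g1 and 5.14 to 6.55% in g2. The share of APOH was 0.664 to 1.21% in gCtl and fell to 0.287 and 0.290% in g2. These are shares of 3′ reads, and fewer cells that express a gene and less RNA per cell cannot be told apart in such bulk libraries.

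The order of the genes' levels depended on the scale. A 3′ method does not read more from a longer transcript by design, so division by length may not suit these libraries, and both scales are given. In RPM the order in gCtl was APOB (1163), APOA1 (450), APOA2 (214), APOC3 (81.4), APOE (75.5), APOH (20.1), MTTP (19.7) and APOA4 (0.110). APOC3 and APOE overlapped over the libraries, as did APOH and MTTP. Per length, in TPM (transcript abundance scaled for length and library), it was APOA2 (673), APOA1 (620), APOC3 (191), APOB (107), APOE (81.0), APOH (22.2), MTTP (6.78) and APOA4 (0.0949), with overlap between APOA2 and APOA1, APOC3 and APOB, and APOB and APOE. The gap for APOB comes from its length of 13989 bases. In g2 MTTP stood above APOH on both scales, at 74.1 against 3.65 RPM and 23.7 against 4.23 TPM, whereas in gCtl it was below APOH in TPM.

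Transcript length also moved with the groups. Over all tested genes shorter than 600 bases (226 genes), the median log2 fold change was -0.53 with g1 and -0.57 with g2, and over those of 4000 bases and more it was 0.12 and 0.15. APOA2 (405 bases) and APOC3 (547 bases) are in the short class and APOB is in the long class. Between g2 and g1 the medians of these classes were 0.08 and 0.03. After this trend was removed, an alternative added once the data had been seen, APOA2 was 1.16 with g1 (adjusted p = 0.00197, called) and APOH was 0.60 with g1 (adjusted p = 0.0337, called). APOA2 with g2 became -0.14 (adjusted p = 0.717). APOC3 with g2 became -0.81 (adjusted p = 0.0977) and was no longer called. MTTP, APOB and the 4 calls between the guides held.

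The genes whose pattern over the 10 libraries was most like each member's were found by the root mean square difference of centred log2(RPM + 1). For MTTP they were ZNF618, ZNF462 and LAP3, at 0.341, 0.372 and 0.382, where MTTP's own departure from its mean was 0.933. For APOB they were NAT8L (0.242), POMT2 (0.269) and C17orf67 (0.269), against 0.641. For APOH they were LITAF (0.328), HSPA12A (0.332) and TUBB4B (0.372), against 0.958. The gene nearest to APOC3 was APOA2, at 0.315, followed by PCK2 and TNFAIP8L3, and the genes nearest to APOA2 were SESN2, GMPPB and TBC1D2 at 0.254 to 0.264. For APOA1 (YTHDF2 and HSPA14) and APOE (AAR2, PRKAA2 and PDLIM1) the differences were 0.120 to 0.184, against the members' own 0.229 and 0.479. Likeness here describes 10 libraries, for which the labels name no batch.

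Few genes of the machinery around MTTP and APOB were called. Of 24 tested genes of lipoprotein assembly and export from the endoplasmic reticulum, 2 were higher and 2 lower with g1, and 1 was higher and 3 lower with g2. The share called was 16.7% with either guide, against 16.8% of all tested genes with g1 and 23.7% with g2. The median log2 fold change of the 24 was 0.02 with g1 and -0.17 with g2. P4HB, the partner subunit of MTTP, was lower while MTTP was higher, at -0.70 with g1 (adjusted p = 0.00402) and, for g2, -0.66 (adjusted p = 0.00954), in 5 of 5 libraries. SEC13, a coat protein of the vesicles that leave the endoplasmic reticulum, was -0.86 with g1 (adjusted p = 0.0211) and, for g2, -0.62 (adjusted p = 0.108). TFG, which organises the sites of that export, was -0.68 with g2 (adjusted p = 0.0137) and -0.56 with g1, under the fold of 1.5. PRAP1, a lipid-binding protein that aids MTTP, was higher from very low levels: 0 to 0.383 RPM in gCtl, 0.695 to 1.08 RPM in g1 and 3.14 and 3.75 RPM in g2. Only the g2 libraries exceeded the 3 RPM needed for testing, so PRAP1 was tested through the group where it was highest. It is the gene counted as higher with g2 and 1 of the 2 counted as higher with g1. The genes called between the guides, both lower with g2, were HSPA5 (-0.91, adjusted p = 0.00812), an endoplasmic reticulum chaperone, and CIDEB (-0.90, adjusted p = 0.0444), which helps to load lipid onto nascent particles. They are 8.33% of the 24, against 4.98% of all tested genes called between the guides. These 2 were named after their values were seen.

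Of 23 tested genes that supply triglyceride and cholesteryl ester, 5 were higher and none lower with g1, with a median of 0.30. With g2 4 were higher and 2 lower, with a median of 0.04. The shares called were 21.7% with g1 and 26.1% with g2, against 16.8% and 23.7% of all tested genes. MOGAT3, a monoacylglycerol acyltransferase, was called with both guides (0.70, adjusted p = 0.0230, for g1 and 1.16, adjusted p = 0.00169, for g2). GPAT3, which starts glycerolipid synthesis, was 1.19 with g1 (adjusted p = 0.0119) and, for g2, 0.71 (adjusted p = 0.144).

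Of 16 tested genes of lipoprotein receptors and uptake, 2 were higher and 4 lower with g1, and none was higher and 5 were lower with g2. The medians were -0.12 and -0.46, and the shares called were 37.5% and 31.2%, against 16.8% and 23.7% of all tested genes. SDC1, a heparan sulfate proteoglycan that takes up remnant particles, fell by 1.95 on the log2 scale with g1 (adjusted p = 0.000247) and, for g2, by 1.08 (adjusted p = 0.0136). SORT1, a sorting receptor that binds APOB, fell by 0.89 (adjusted p = 0.00344) and by 0.78 (adjusted p = 0.0124). Called higher with g1 were LRP10 (0.77, adjusted p = 0.00460), a member of the LDL receptor family, and AMN (0.89, adjusted p = 0.0237), a partner of the endocytic receptor cubilin.

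Of 12 tested genes of lipid efflux, high density lipoprotein remodelling and lipolysis, none was higher and 2 were lower with g1, and 1 was higher and 5 were lower with g2. The medians were 0.09 and -0.23, and the shares called were 16.7% and 50.0%, against the same 16.8% and 23.7%. LIPC, hepatic lipase, was lower with both guides, at -0.64 (adjusted p = 0.0312) and -0.87 (adjusted p = 0.0127), as was LMF2, a lipase maturation factor homologue, at -0.72 (adjusted p = 0.0385) and -1.66 (adjusted p = 0.000997). FURIN, a proprotein convertase, was -1.97 with g2 (adjusted p = 0.0148), and LMF1, which folds lipases, was 1.67 with g2 (adjusted p = 0.0214) from a mean of 1.25 RPM in gCtl. FURIN exceeded the 3 RPM needed for testing only in gCtl libraries and LMF1 only in guide libraries. Both were thus tested through the libraries where they were high, and LMF1 is the gene counted as higher with g2. Of 12 tested other apolipoproteins and proteins carried on lipoproteins, 1 was higher and 2 lower with g1, and 1 was higher and 3 lower with g2, with medians of -0.18 and 0.19 and shares of 25.0% and 33.3%. PON3, a lactonase of high density lipoprotein, fell by 2.04 with g1 (adjusted p = 0.00133) and, for g2, by 2.68 (adjusted p = 0.000738), and APOL2, an intracellular apolipoprotein L, was 1.20 (adjusted p = 0.0188) and 1.12 (adjusted p = 0.0375). PON3 too exceeded 3 RPM only in gCtl libraries.

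Of 35 tested transcription factors and coactivators thought to act on apolipoprotein genes, 4 were higher and 3 lower with g1, and 7 were higher and 4 lower with g2, with medians of 0.03 and 0.13. The shares called, 20.0% and 31.4%, stood against 16.8% and 23.7% of all tested genes. NR2F1, an orphan nuclear receptor, was at 3.26 to 4.87 RPM in gCtl and 12.7 to 18.4 RPM in the guide libraries, with log2 fold changes of 1.76 (adjusted p = 0.000174) and 2.05 (adjusted p = 5.7e-05). THRB, a thyroid hormone receptor, was 1.08 (adjusted p = 0.000387) and 1.59 (adjusted p = 2.28e-05). HNF4G, a paralogue of HNF4A, was 0.74 with g1 (adjusted p = 0.165) and, for g2, 1.83 (adjusted p = 0.00308). PROX1, a corepressor of HNF4A, fell by 0.90 (adjusted p = 0.00491) and by 0.97 (adjusted p = 0.00634). CEBPB and RXRB were lower with g1, at -1.67 (adjusted p = 0.0174) and -1.96 (adjusted p = 0.0138), and with g2 were -0.78 (adjusted p = 0.253) and -1.06 (adjusted p = 0.155). RXRB exceeded the 3 RPM needed for testing only in gCtl libraries, the group where it was high. Between the guides 1 was higher and 4 were lower with g2, a share of 14.3% against 4.98% of all tested genes. Among the lower was NR2F6 (-1.99, adjusted p = 0.00124), an orphan receptor named after its values were seen.

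APOBEC1, the enzyme that edits APOB mRNA to the short intestinal form, was at 0 in 9 libraries and at 0.115 RPM in 1. Its cofactor A1CF was at 107 to 190 RPM and was not called with either guide. The adjusted p of the 4 tested editing factors was 0.0589 to 0.840 with g1 and 0.0951 to 0.791 with g2, so that none was called, and their medians were -0.12 and 0.08.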

How the data were processed

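RNA was read as 10 single-end QuantSeq 3′ libraries. The authors quantified the reads with kallisto (given as version 42.5 per the labels) against GENCODE v24 transcripts of GRCh38 and deposited an estimated count and a TPM per transcript, 1 table per library. The estimated counts of 199169 transcripts were summed over 60554 genes and rounded. RPM divided a gene's count by the library total. As in the study's methods, testing was limited to genes with a protein-coding transcript that exceeded 3 RPM in 20% of libraries or more (11640 genes, 7 of the 8 members). edgeR 4.0.16 (TMM, quasi-likelihood) fitted gCtl, g1 and g2 together, and the guides together against gCtl in a second fit, with Benjamini-Hochberg adjustment over all tested genes. Standard errors and 95% intervals are from that fit. DESeq2 1.42.0 and limma 3.58.1 were alternatives, with other scalings and filters and each library left out. On simulated counts with 200 changed genes among 11640, edgeR called 95.5% of them for g1 and 89% for g2. Permutation tests used scipy 1.17.1. Coordinates and neighbours came from GENCODE v29 (same build) and promoters from RefSeq. Per the labels no replicate numbers exist, so libraries were numbered in accession order.

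Named in the text were the 8 members. From each list, up to 3 genes in each direction with the largest called change in the comparison of both guides together were named, as were genes called in opposite directions. The nearest tested genes and the 3 genes most alike were also named. Of the genes this rule names, 2 are not reported here. Members, lists and motifs were chosen with earlier results of these data known. Intervals cover the spread between these libraries, which may be technical. Libraries of a group differed by more than sampling noise (chi-square of 4.25 to 24.3 per degree of freedom), so none was counted as a duplicate.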

Additional observations from a re-analysis of the deposited data

Results flagged for a closer look

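The effect of the guides differed for 4 of the genes by the test of g2 against g1 itself: the log2 fold change was -1.62 for APOB, -2.74 for APOH, -1.56 for APOC3 and -1.28 for APOA2. For APOB the guide libraries also moved in opposite directions from gCtl. Against a minimum fold of 1.5 (edgeR's glmTreat), APOB and APOH stayed past the threshold and APOC3 and APOA2 did not.

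In gCtl, APOA2 was 276 RPM in the second library, far from the other 4 (188 to 211 RPM) by Dixon's criterion, which marks about 1 in 20 such groups by chance. It was the 1 marked of 8 groups examined.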

How the results depend on the processing

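No paired analysis was run, because the labels give no replicate numbers to pair by. MTTP with either guide, APOH with g2 and the differences of APOB and APOH between the guides kept their direction and their side of the threshold under every alternative run. Over those alternatives, left-out libraries included, the log2 fold change of MTTP was 1.61 to 2.03 with g1 and 1.66 to 2.29 with g2, that of APOH with g2 was -2.45 to -2.10, and between the guides APOB was -1.76 to -1.51 and APOH -2.85 to -2.55. Of 350 single-gene values under other settings, 325 kept direction and call, and of 280 with a library left out, 252 did.

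Against a minimum fold of 1.5 (glmTreat), 1 gene was called with g1, 2 with g2 and 2 between the guides. With the trend on transcript length removed, 4 were called with g1. With g1 3 were called with no filter and in the fit of gCtl and g1 only, and with g2 6 were called by limma on log2(RPM + 1) and 5 on log2(TPM + 1). With each library left out, the number called was 1 to 2 with g1 (1 without the second g1 library) and 3 to 5 with g2. Between the guides it was 2 to 5 (2 without the first or the third g1 library or the second g2 library). With the guides as 1 group it was 1 in each. The cause was not tested.

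Values that changed sign were not called. APOA1 with g2 was -0.15 with library totals, -0.0303 with all biotypes, -0.13 by limma on log2(RPM + 1) and -0.14 by limma on log2(TPM + 1). It was -0.0155 between the guides by limma on log2(TPM + 1). Library totals moved the median of all genes with g2 to -0.16 and the number of genes called higher from 1243 of 2757 to 750 of 2811. With the length trend removed, APOA1 was 0.10 with g1, and with the guides as 1 group APOA1 was 0.18, APOC3 0.30 and APOH 0.0013. By limma APOA2 was then -0.0889 on log2(RPM + 1) and -0.0592 on log2(TPM + 1). With libraries left out, APOA1 with g2 ranged from -0.0843 to 0.0786, and between the guides APOE ranged from -1.07 to 0.26 and MTTP from -0.0253 to 0.45. With the guides as 1 group, APOA1 ranged from -0.18 to 0.0023, APOA2 from -0.0172 to 0.45, APOC3 from -0.45 to 0.12 and APOH from -0.47 to 0.10.

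The g2 group has 2 libraries, and these lay far apart for APOA2, APOC3 and APOE, so that calls of those genes depend on which is kept. APOA4 was below the filter of these fits.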
